A study of Mus musculus with 22 samples.

Results

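Pou5f1, Sox2, Sall4, Lin28a, Utf1, Dppa2, Dppa4 and L1td1 are pluripotency genes that mouse cells express in both the naive and the primed state. They were taken by gene symbol from the 12 RNA-seq count tables of the study, in which they are 8 of 52535 symbols. Each of the 8 occurred once in every table. All 8 passed the filter on low counts that left 16765 genes for testing.

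The libraries were made from E14, an established line of mouse embryonic stem cells. In all 12 cultures, WT included, LIF and the 2i pair of a MEK inhibitor and a GSK inhibitor had been withdrawn and retinoic acid (RA) added at 2 µM for 1 day. The 4 genotypes, with 3 libraries each, were WT and the deletion genotypes E1-KO, E2-KO and D-KO, together called KO below. The series concerns a pair of enhancers of the HoxB cluster, here called E1 and E2. E1-KO and E2-KO each lack one of them, and D-KO, which the labels do not spell out, is read as lacking both. The labels call the 3 replicates biological but name no clones and do not say whether they were separate cultures. P-values thus reflect the spread between these libraries only, and the effect of a deletion and that of a derived line cannot be told apart. Cells without RA were not analysed here.

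Pou5f1 encodes Oct4 and Sox2 its partner, and the pair binds composite sites in enhancers of many genes of the pluripotency network, their own included. Sall4 is a zinc-finger factor that recruits the NuRD deacetylase complex, Utf1 a chromatin-associated factor, and Dppa2 and Dppa4 are SAP-domain proteins that act as a pair. Lin28a and L1td1 are RNA-binding proteins, and Lin28a blocks maturation of let-7 microRNAs. Retinoic acid drives embryonic stem cells out of pluripotency, and these genes are lost with different timing as differentiation proceeds.

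Promoter sequences are shown for the 3 members that were higher together in both single deletions by the largest folds (Pou5f1, Sox2 and Utf1) and for L1td1, whose level was highest in D-KO. They come from a table of RefSeq promoters on GRCm38.p6, in which 5 of the 8 members were matched, and each was trimmed to the bases upstream of any annotated exon. They read 5′ to 3′ on the gene's strand, which is plus for all 4. Capitals mark matches, on either strand, to a GC box (GGGCGG) or to the half-site of nuclear receptors such as the RA receptor (AGGTCA).

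Pou5f1, chr17:35505782-35506017, plus strand: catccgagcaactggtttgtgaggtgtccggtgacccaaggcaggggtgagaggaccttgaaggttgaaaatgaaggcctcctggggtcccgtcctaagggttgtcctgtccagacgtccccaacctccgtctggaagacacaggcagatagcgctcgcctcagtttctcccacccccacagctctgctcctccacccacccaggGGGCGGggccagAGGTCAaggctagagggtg
Sox2, chr3:34649745-34649994, plus strand: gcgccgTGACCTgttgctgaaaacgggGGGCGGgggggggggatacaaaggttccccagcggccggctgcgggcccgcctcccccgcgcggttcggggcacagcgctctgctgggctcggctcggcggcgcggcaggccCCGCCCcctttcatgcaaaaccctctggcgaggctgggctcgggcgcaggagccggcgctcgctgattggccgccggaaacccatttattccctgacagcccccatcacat
Utf1, chr7:139943606-139943788, plus strand: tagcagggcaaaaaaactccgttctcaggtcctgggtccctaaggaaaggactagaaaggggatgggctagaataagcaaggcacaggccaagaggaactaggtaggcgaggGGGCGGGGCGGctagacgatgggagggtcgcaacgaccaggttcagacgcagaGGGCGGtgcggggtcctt
L1td1, chr4:98726504-98726733, plus strand: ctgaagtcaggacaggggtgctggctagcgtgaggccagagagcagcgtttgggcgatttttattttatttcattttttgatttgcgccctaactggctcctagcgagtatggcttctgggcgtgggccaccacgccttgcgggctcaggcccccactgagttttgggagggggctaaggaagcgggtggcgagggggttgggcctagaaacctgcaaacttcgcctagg

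The Pou5f1 window of 236 bases held 1 GC box and 1 half-site, the latter 19 to 14 bases before the window's end. The Sox2 window of 250 bases held 2 GC boxes and 1 half-site, which lay 244 to 239 bases before its end. The Utf1 window of 183 bases held 3 GC boxes, the first and second of which overlap by 1 base, and no half-site. The L1td1 window of 230 bases held neither motif. The octamer ATGCAAAT and the Sox motif ACAATG, also searched on both strands, were in none of these 4 windows. The window of Lin28a, the other matched member, has 225 bases and held ACAATG on the opposite strand, 71 to 66 bases before its end. A second Pou5f1 window in that table, chr17:35508557-35508806, belongs to a start inside the gene and holds ACAATG 158 to 153 bases before its end. Over 32851 RefSeq promoters, a half-site was present in 13.3% of windows of 236 bases and in 14% of windows of 250 bases. ACAATG was present in 9.57% of windows of 225 bases and in 10.7% of windows of 250 bases. A GC box was present in 32.3%, 32.7% and 30.4% of windows of 236, 250 and 183 bases. These background windows end at the RefSeq start, whereas the trimmed windows of fewer than 250 bases end short of it. The shares for such lengths are thus for a somewhat different stretch of promoter. The motif counts describe these letters only and bear on no factor's binding.

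Depth was 9101547 to 13007735 counts on genes per library. The WT libraries stood apart from one another: the median gene-wise dispersion was 0.0928 among the 3 WT libraries and 0.00616 among the 9 KO libraries. Mitochondrially encoded genes took 3.50%, 1.94% and 5.88% of the counts in WT replicates 1, 2 and 3, against 1.36% to 1.48% in E1-KO, 1.63% to 1.81% in the E2-KO libraries and 2.53% to 2.69% in D-KO. Across genes, the Spearman correlation of transcript GC content with a library's departure from the mean of all libraries was -0.584, 0.159 and -0.441 in WT replicates 1, 2 and 3. It was 0.259 to 0.451 in the single deletions and -0.114 to -0.0244 in D-KO. Many results below are therefore also given with these trends removed and against WT replicate 2 alone. A fit with 1 WT library holds no spread within WT, so for single genes only effect sizes are given from it. Counts of calls from that fit are listed in the last section alone. They take their spread from the KO libraries and are not read as results. The part of these trends in the differences from WT was not tested beyond the values with trends removed and against WT replicate 2 alone. In bulk RNA, fewer cells expressing a gene and less RNA per cell cannot be told apart.

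Per kilobase of exon, Pou5f1 was the most abundant of the 8 transcripts in every genotype, at 350 CPM per kb in WT, 648 in E1-KO, 675 in the E2-KO libraries and 528 in D-KO. L1td1 was second in WT, at 242 CPM per kb, and in D-KO, at 369. Utf1 was second in the single deletions, at 220 CPM per kb in E1-KO and 272 in E2-KO, where L1td1 stood at 214 and 241. Sall4 had the lowest level per kilobase in WT, at 51.0 CPM per kb, and Lin28a the lowest in the 3 KO genotypes, at 47.4, 57.4 and 71.0. The summed level of the 8 genes ranged from 2578 to 3098 CPM over the WT libraries, 3718 to 3827 over E1-KO, 3968 to 4088 over E2-KO and 4171 to 4304 over D-KO, with no overlap between WT and any KO genotype. Pou5f1 and L1td1 had the highest mean CPM of the 8 in every genotype and weigh most in this sum, which does not show that each gene rose.

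**Figure D1:**
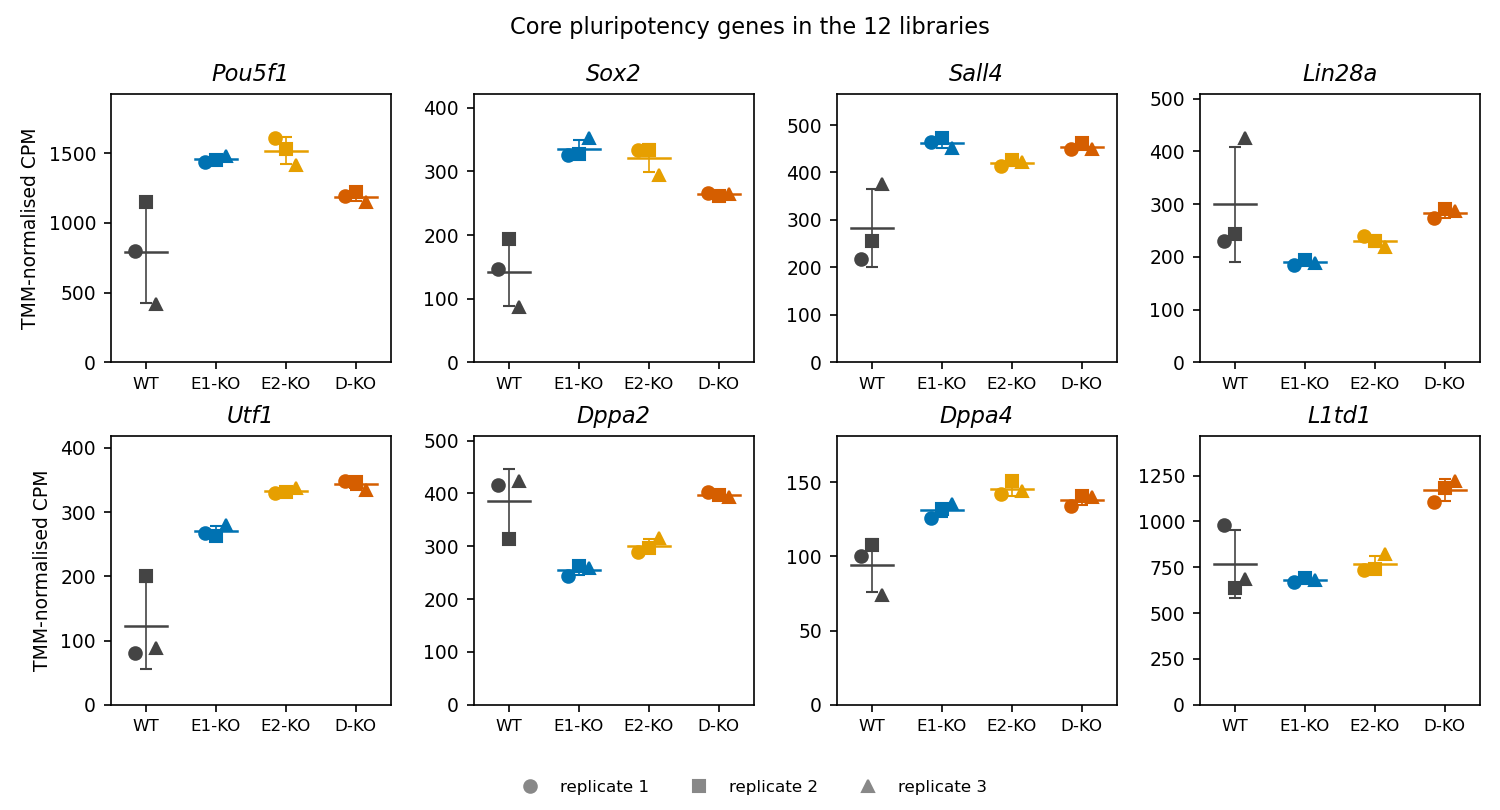
Level of each of the 8 genes in the 12 libraries, in TMM-normalised CPM (counts scaled to library size with the trimmed mean of M-values; vertical axes from 0). Symbols are libraries by replicate number, long bars are means and whiskers SDs over 3 libraries; the WT libraries spread more widely than those of any KO genotype in all 8 panels.

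Against WT, most of the 8 genes were higher after RA in every KO genotype. Sox2, Utf1, Sall4 and Dppa4 rose in E1-KO, E2-KO and D-KO, Pou5f1 rose in E1-KO and E2-KO, and L1td1 rose in D-KO. Lin28a fell in E1-KO, and Dppa2 fell in E1-KO and E2-KO. A gene was called where its p in edgeR's quasi-likelihood test, adjusted over all 16765 genes by the Benjamini-Hochberg method, was below 0.05. In E1-KO, 5 of the 8 rose and 2 fell, and 34.2% of all genes tested were called. In E2-KO, 5 rose and 1 fell (35.3% of all genes called), and in D-KO 5 rose and none fell (22.8%). The median log2 fold change over the 8 was 0.59 in E1-KO, 0.60 in the E2-KO libraries and 0.60 in D-KO, beside -0.01, 0.00 and -0.02 over all genes tested. All KO libraries lay above all WT libraries for 5 of the 8 genes in E1-KO (21.0% of all genes tested), 5 in E2-KO (21.2%) and 6 in D-KO (16.6%), and below them for 2 in E1-KO (20.1%). The 3 comparisons share the WT libraries, so their values are not independent of one another. Fitted on the 6 libraries of a pair of genotypes alone, where the spread of WT is not averaged with that of the other genotypes, the calls fell from 7 to 4 in E1-KO, from 6 to 3 in E2-KO and from 5 to 1 in D-KO. In those fits 15.9%, 16.0% and 9.09% of all genes were called.

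**Figure D2:**
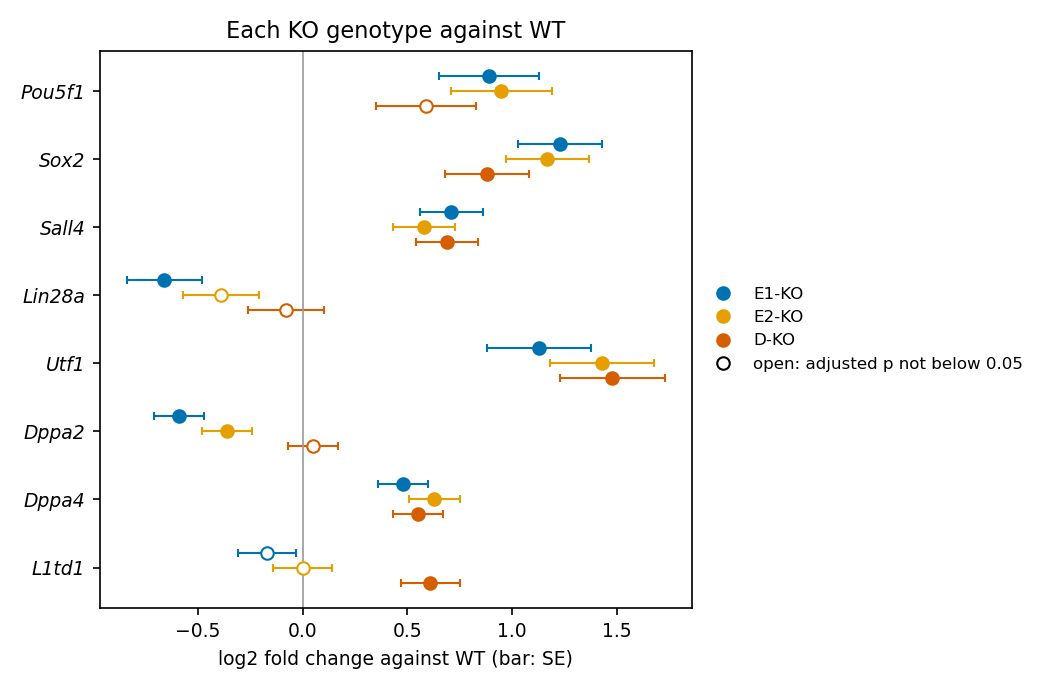
Log2 fold change of each gene in E1-KO, E2-KO and D-KO against WT (points) with its standard error (bars) from the edgeR fit on 12 libraries; open points have an adjusted p of 0.05 or above. Sox2 and Utf1 lie furthest to the right in all 3 genotypes, and Lin28a and Dppa2 lie left of 0 in both single deletions.

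Pou5f1 is a gene of chromosome 17 (35506018 to 35510772, plus strand, GRCm38). Its level was 798, 1146 and 418 CPM in WT replicates 1, 2 and 3, and 1437, 1451 and 1482 CPM in E1-KO. It was 1606, 1532 and 1417 CPM in E2-KO and 1190, 1218 and 1152 CPM in D-KO. All 9 KO libraries were above all 3 WT libraries, although the lowest D-KO library lay next to the highest WT library. Pou5f1 rose by 0.89 ± 0.24 on the log2 scale in E1-KO (± is the standard error here and below; edgeR adjusted p = 0.0124) and by 0.95 ± 0.24 in E2-KO (adjusted p = 0.00873). In D-KO its log2 difference was 0.59 ± 0.24 and did not pass (edgeR adjusted p = 0.0919). Once trends with GC content and length were removed, the log2 values were 0.47, 0.45 and 0.29, and against WT replicate 2 alone 0.36, 0.41 and 0.05. Leaving out WT replicate 3 gave 0.59, 0.64 and 0.28, and leaving out WT replicate 2 gave 1.26, 1.32 and 0.97, the last of which passed the test. In the fits on 6 libraries Pou5f1 was called in none of the 3 genotypes. Gm19553 lies on the opposite strand and shares 317 exonic bases with Pou5f1, 14.1% of its exon length. Reads of the pair may not be separable, because the strand setting of the counting is not given in the sources used here. Counts on Gm19553 were 0.566 to 0.636 times those on Pou5f1 in the WT and single-deletion libraries and 0.532 to 0.542 times in D-KO.

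Sox2, a single-exon gene on chromosome 3 (34650405 to 34652461, plus strand), differed from WT in all 3 genotypes. Its level was 146, 194 and 87.5 CPM in WT replicates 1, 2 and 3, against 325, 328 and 352 CPM in E1-KO. E2-KO libraries held 334, 334 and 295 CPM, and D-KO libraries 266, 262 and 264 CPM. No KO library overlapped WT, and the D-KO libraries lay below all 6 of the single deletions. Sox2 rose by 1.23 ± 0.20 on the log2 scale in E1-KO (2.34-fold, edgeR adjusted p = 0.000396), by 1.17 ± 0.20 in E2-KO (2.24-fold, adjusted p = 0.000624) and by 0.88 ± 0.20 in D-KO (1.85-fold, adjusted p = 0.00556). The GC-adjusted log2 values were 1.17, 1.06 and 0.85. Against WT replicate 2 alone, the WT library with the most Sox2, the log2 values were 0.80, 0.72 and 0.44. In the fits on 6 libraries the D-KO call was lost (edgeR adjusted p = 0.064).

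Sall4 (chromosome 2, 168748332 to 168767943, minus strand) was raised to nearly the same level in the 3 KO genotypes. WT replicates 1, 2 and 3 held 218, 255 and 375 CPM, and here replicate 3 was the highest, the reverse of its place for Pou5f1 and Sox2. The values were 464, 472 and 452 CPM in E1-KO, 414, 426 and 421 CPM in E2-KO and 450, 463 and 450 CPM in D-KO, all above WT. Sall4 rose by 0.71 ± 0.15 on the log2 scale in E1-KO (edgeR adjusted p = 0.00287), by 0.58 ± 0.15 in E2-KO (adjusted p = 0.0103) and by 0.69 ± 0.15 in D-KO (adjusted p = 0.00527). Against WT replicate 2 alone the log2 values were 0.87, 0.73 and 0.84. The calls in E2-KO and D-KO were lost in the fits on 6 libraries (edgeR adjusted p = 0.096 and 0.075). Gm14261, on the opposite strand, shares 526 exonic bases with Sall4 (9.50% of its exon length), and its counts were 0.0364 to 0.0809 times those on Sall4.

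Utf1, a short gene on chromosome 7 (139943789 to 139945112, plus strand), had the largest rise of the 8 in E2-KO and D-KO with all libraries and no correction. Its level was 79.8, 201 and 88.3 CPM in WT replicates 1, 2 and 3, so that replicate 2 stood well above the others. It was 268, 263 and 280 CPM in E1-KO, 330, 332 and 337 CPM in E2-KO and 349, 347 and 334 CPM in D-KO. Even the highest WT library was below every KO library. Utf1 rose by 1.13 ± 0.25 on the log2 scale in E1-KO (2.19-fold, edgeR adjusted p = 0.00427), by 1.43 ± 0.25 in E2-KO (2.70-fold, adjusted p = 0.000998) and by 1.48 ± 0.25 in D-KO (2.78-fold, adjusted p = 0.00115). Its transcript is the richest in G and C of the 8, at 63.5%, against 43.6% for Dppa2 at the other end. With GC and length trends removed the rises were 0.55, 0.79 and 1.11, of which that in E2-KO was below the 1.06 of Sox2, and against WT replicate 2 alone 0.44, 0.73 and 0.77. The D-KO value was the largest of the 3 in each of these settings, and all 3 calls were kept in the fits on 6 libraries.

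Dppa2 and Dppa4 lie next to each other on chromosome 16, Dppa4 at 48283733 to 48294237 and Dppa2 at 48303908 to 48319723, both on the plus strand and 9670 bases apart. Their levels went in opposite directions in the single deletions. Dppa2 stood at 416, 314 and 424 CPM in WT, 244, 262 and 258 CPM in E1-KO, 290, 296 and 315 CPM in E2-KO and 402, 397 and 394 CPM in D-KO. E1-KO was below all WT libraries, 1 E2-KO library overlapped WT replicate 2, and D-KO lay within the range of WT. Dppa2 fell by 0.59 on the log2 scale in E1-KO (SE 0.12, edgeR adjusted p = 0.00158) and by 0.36 in E2-KO (SE 0.12, adjusted p = 0.0278). In D-KO its log2 difference was 0.05 ± 0.12 (edgeR adjusted p = 0.796). The E2-KO call was lost with GC and length trends removed (-0.18) and without a filter on low counts (-0.33). It was also lost in the fit on 6 libraries (-0.37) and when WT replicate 1 or any E2-KO library was left out. Against WT replicate 2 alone, the WT library with the least Dppa2, the log2 values were -0.06 in E2-KO and 0.34 in D-KO. Without that library the D-KO value changed sign (-0.08). The E1-KO value was -0.36 with GC and length trends removed and -0.29 against WT replicate 2 alone.

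Dppa4 was at 100, 108 and 73.9 CPM in WT, 126, 132 and 135 CPM in E1-KO, 142, 151 and 144 CPM in E2-KO and 134, 141 and 140 CPM in D-KO. Every KO library was above every WT library. Dppa4 rose by 0.48 ± 0.12 on the log2 scale in E1-KO (edgeR adjusted p = 0.00923), by 0.63 ± 0.12 in E2-KO (adjusted p = 0.00178) and by 0.55 ± 0.12 in D-KO (adjusted p = 0.00553). Against WT replicate 2 alone the log2 values were 0.28, 0.43 and 0.35, and in the fits on 6 libraries the E2-KO call alone was kept. The ratio of Dppa2 to Dppa4 counts was 4.16, 2.89 and 5.74 in replicates 1, 2 and 3 of WT, while it ran from 1.91 to 1.98 in E1-KO, 1.96 to 2.19 in the E2-KO libraries and 2.81 to 3.00 in D-KO. The ratio was thus below every WT library in the single deletions and overlapped WT in D-KO.

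**Figure D3:**
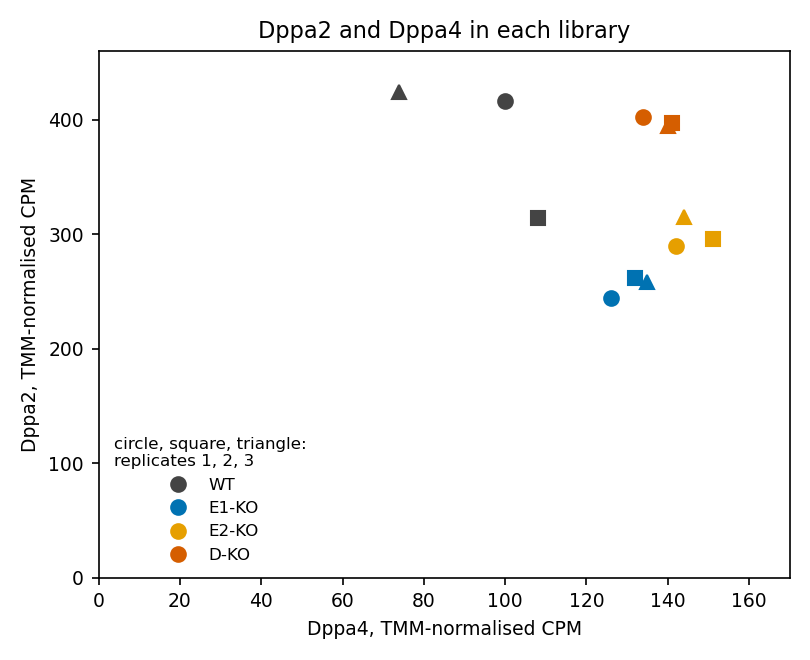
Dppa2 (vertical) against Dppa4 (horizontal) in each of the 12 libraries, both in TMM-normalised CPM from 0. The KO libraries form 3 separate groups at a Dppa4 level of 126 to 151 CPM, with Dppa2 lowest in E1-KO and highest in D-KO, and the WT libraries lie to their left.

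Lin28a (chromosome 4, 134003330 to 134018841, minus strand) was the other member that fell. It was at 230, 244 and 425 CPM in WT replicates 1, 2 and 3, 185, 194 and 189 CPM in E1-KO, 240, 231 and 218 CPM in E2-KO and 273, 291 and 287 CPM in D-KO. WT replicate 3 stood far above the other WT libraries, as it did for Sall4. Only the E1-KO libraries lay below all WT libraries. Lin28a fell by 0.66 on the log2 scale in E1-KO (SE 0.18, edgeR adjusted p = 0.0114), and its differences of -0.39 in E2-KO and -0.08 in D-KO did not pass (edgeR adjusted p = 0.106 and 0.789). The E1-KO value was -0.32 without WT replicate 3 and -0.36 against WT replicate 2 alone, and its call was lost in the fit on 6 libraries (edgeR adjusted p = 0.087). The E2-KO difference passed without WT replicate 1 (-0.55) or 2 (-0.51), and was -0.09 against WT replicate 2 alone. The D-KO difference changed sign and passed as higher without WT replicate 3 (0.25, edgeR adjusted p = 0.0231). Against WT replicate 2 alone it was 0.21. Gm13061, on the opposite strand, shares 234 exonic bases with Lin28a (5.86% of its exon length), and its counts were 0.0381 to 0.103 times those on Lin28a.

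L1td1 (chromosome 4, 98726734 to 98738480, plus strand), which descends from a LINE-1 retrotransposon, differed from WT in D-KO. WT replicates 1, 2 and 3 held 980, 636 and 687 CPM, E1-KO 669, 693 and 679 CPM and E2-KO 733, 743 and 821 CPM. D-KO libraries held 1108, 1185 and 1222 CPM and lay above the other 9. L1td1 rose by 0.61 ± 0.14 on the log2 scale in D-KO (1.53-fold, edgeR adjusted p = 0.00665), and by 0.88 against WT replicate 2 alone. The D-KO call was lost in the fit on 6 libraries (edgeR adjusted p = 0.089). In E1-KO the log2 difference was -0.17 ± 0.14 (edgeR adjusted p = 0.351) and in E2-KO -0.00 ± 0.14 (adjusted p = 0.985). Neither passed with all libraries. Without WT replicate 2 L1td1 passed as lower in E1-KO (-0.29, edgeR adjusted p = 0.0467), and the sign turned without WT replicate 1 (0.05). Against WT replicate 2 alone the log2 differences of L1td1 were 0.11 in E1-KO and 0.27 in E2-KO.

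**Figure D4:**
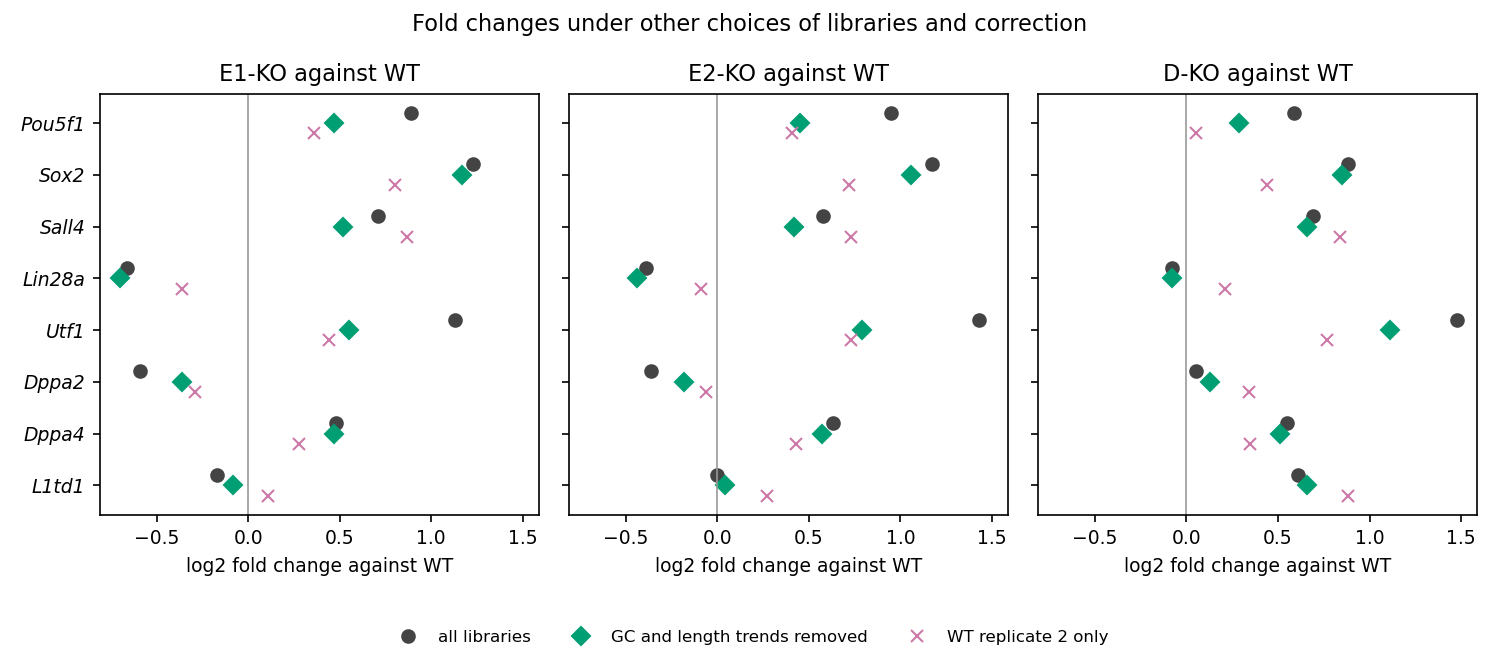
Log2 fold change of each gene against WT with all libraries (circles), with each library's trends with GC content and length removed (diamonds) and with WT replicate 2 as the only WT library (crosses). Pou5f1 and Utf1 move furthest towards 0, and Pou5f1, Sox2, Sall4, Utf1 and Dppa4 stay to the right of 0 in all 3 genotypes and all 3 settings.

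The KO genotypes were then compared with each other, without WT in the contrast. D-KO had more L1td1 than either single deletion and more Dppa2 and Lin28a than E1-KO. Against E1-KO, 3 of the 8 genes rose in D-KO and none fell, with 15.9% of all genes called (8.43% higher and 7.52% lower). L1td1 was higher by 0.78 ± 0.14 on the log2 scale (1.72-fold, edgeR adjusted p = 0.00253), Dppa2 by 0.64 ± 0.12 (1.56-fold, adjusted p = 0.00254) and Lin28a by 0.58 ± 0.18 (1.5-fold, adjusted p = 0.0396). The Lin28a call was lost whenever any 1 of the 9 KO libraries was left out. Against E2-KO, L1td1 was the 1 gene called, higher by 0.61 ± 0.14 (edgeR adjusted p = 0.0242), with 4.48% of all genes called (1.84% higher and 2.64% lower). That call was lost when any E2-KO or D-KO library was left out. Dppa2 was at 0.41 ± 0.12 above E2-KO on the log2 scale and did not pass (edgeR adjusted p = 0.0636), although it passed in DESeq2 (adjusted p = 0.013). It also passed without a filter on low counts and with GC and length trends removed. Fitted on the 6 libraries of a pair alone, Dppa2 and L1td1 passed in both comparisons and Lin28a passed against E1-KO. Those fits called 50.7% of all genes against E1-KO and 37.3% against E2-KO.

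Pou5f1 and Sox2 were lower in every D-KO library than in every library of the single deletions, and neither passed the test on 12 libraries. Of all genes tested, 27.1% had all D-KO libraries below E1-KO and 23.0% had them below E2-KO. The log2 differences of Pou5f1 were -0.30 ± 0.24 against E1-KO and -0.36 ± 0.24 against E2-KO (edgeR adjusted p = 0.427 and 0.416), and those of Sox2 -0.34 ± 0.20 and -0.28 ± 0.20 (adjusted p = 0.247 and 0.430). The spread in that fit is shared with WT, whose libraries varied most. Fitted on the 6 libraries of the pair alone, both genes passed in both comparisons (the largest edgeR adjusted p was 7.6e-06, for Sox2 against E2-KO), among 50.7% of all genes called against E1-KO and 37.3% against E2-KO. With one weight per genotype in limma voom, 6 of the 8 passed against E1-KO and 5 against E2-KO, Pou5f1 and Sox2 among them, with 47.5% and 33.9% of all genes called. With GC and length trends removed, the Pou5f1 values were -0.18 and -0.16.

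E2-KO and E1-KO did not differ in any of the 8 by the edgeR test on 12 libraries, in which 0.596% of all genes were called. None had an unadjusted p below 0.05 and DESeq2 called none, while 4 (Lin28a, Utf1, Dppa2 and L1td1) passed in limma voom with one weight per genotype and 6 in the fit on 6 libraries. These called 16.8% and 21.4% of all genes. The log2 differences of E2-KO from E1-KO ran from -0.14 for Sall4 to 0.30 for Utf1. In 5 genes (Lin28a, Utf1, Dppa2, Dppa4 and L1td1) all E2-KO libraries were higher than all E1-KO libraries, and in Sall4 all were lower. Over all genes tested, 19.0% were separated in the first direction and 15.7% in the second.

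**Figure D5:**
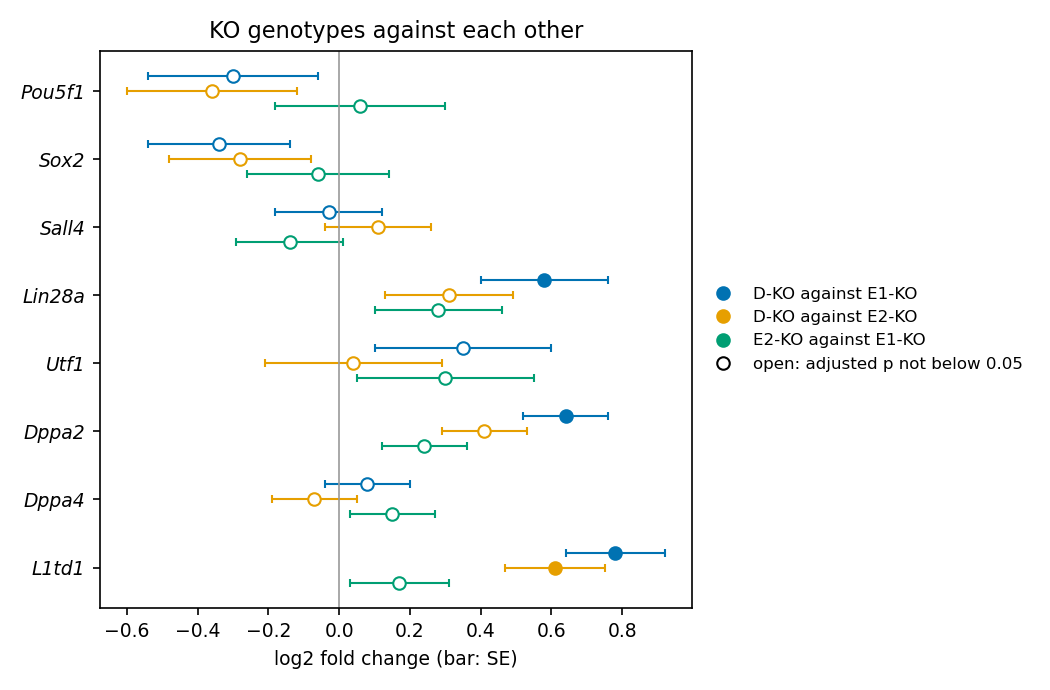
Log2 fold change of each gene between KO genotypes (points) with its standard error (bars) from the edgeR fit on 12 libraries; open points have an adjusted p of 0.05 or above. Lin28a, Utf1, Dppa2 and L1td1 lie right of 0 in all 3 comparisons, Utf1 only just in D-KO against E2-KO (0.04). Pou5f1 and Sox2 lie left of 0 in both comparisons of D-KO.

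The title of the series speaks of joint action of the enhancers, and the interaction D-KO minus E1-KO minus E2-KO plus WT asks whether D-KO departs from the sum of the single deletions on the log2 scale. All 8 genes departed from that sum, 5 downwards and 3 upwards, beside 35.2% of all genes called (17.1% below and 18.1% above the sum). The 5 genes below the sum were Sox2 (-1.51 ± 0.28, edgeR adjusted p = 0.00114), Pou5f1 (-1.24 ± 0.34, adjusted p = 0.0126), Utf1 (-1.09 ± 0.35, adjusted p = 0.0297), Sall4 (-0.60 ± 0.21, adjusted p = 0.0419) and Dppa4 (-0.55 ± 0.17, adjusted p = 0.0257). All 5 had risen in each single deletion. Dppa2 (1.00 ± 0.16, edgeR adjusted p = 0.000495), Lin28a (0.97 ± 0.25, adjusted p = 0.00937) and L1td1 (0.79 ± 0.20, adjusted p = 0.00798) lay above the sum. Removing GC and length trends ended the calls of Utf1 (-0.24) and Sall4 (-0.28) and brought Pou5f1 to -0.63 and Dppa2 to 0.67. Of the 12 fits that each left out 1 library, the call of Sall4 was lost in 11 (all but that without WT replicate 3), that of Utf1 in 10 (all but those without WT replicate 2 or E1-KO replicate 2) and that of Dppa4 in 5, each without a KO library. With WT replicate 2 as the only WT library the 8 values kept their signs, from -1.08 for Sox2 to 0.69 for Dppa2, with Pou5f1 at -0.72, Utf1 at -0.40, Dppa4 at -0.36, Lin28a at 0.66 and L1td1 at 0.50. The WT libraries enter this contrast as well as the comparisons with WT.

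Other genes of the same networks were counted from lists that were drawn up with earlier results of these data known. Of 15 further pluripotency genes of both states, 4 rose and 4 fell in E1-KO, 4 rose and 5 fell in E2-KO and 5 rose and none fell in D-KO, with a median log2 fold change of -0.06, 0.02 and 0.18. Over all genes, 15.7% rose and 18.5% fell in E1-KO, 16.7% rose and 18.6% fell in E2-KO, and 10.6% rose and 12.2% fell in D-KO. Foxd3, a forkhead factor of stem cells, had the smallest adjusted p of that list: it averaged 12.1 ± 7.44 CPM in WT (SD, n = 3 here and below), 86.1 ± 2.35 in E1-KO, 67.1 ± 1.67 in the E2-KO libraries and 39.5 ± 5.84 in D-KO. Mybl2, a cell-cycle regulator of the Myb family, averaged 604 ± 119, 1320 ± 21.8, 1206 ± 13.4 and 899 ± 12.3 CPM. Both were highest in E1-KO, and in D-KO they lay between WT and the single deletions. The 5 falls of that list in E2-KO were all lost in the fit on 6 libraries. With 1 library left out, 2 to 7 of the list fell in E1-KO (7 without WT replicate 2, 2 without E1-KO replicate 1 or 2). In E2-KO 0 to 5 fell, with 3 or fewer in 9 of the 12 fits and 0 or 1 without an E2-KO library, and in D-KO 1 fell without WT replicate 1 and 2 without WT replicate 2.

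Of 12 genes of the naive state, 9 rose in E1-KO, 9 in the E2-KO libraries and 6 in D-KO, and none fell (1 fell in D-KO without WT replicate 1 or 2). The nuclear receptor Esrrb averaged 330 ± 39.3 CPM in WT, 808 ± 15.2 in E1-KO, 651 ± 23.5 in the E2-KO libraries and 523 ± 12.9 in D-KO, and Klf4 78.6 ± 14.9, 186 ± 5.47, 181 ± 7.38 and 137 ± 3.38 CPM. Of 10 formative and primed genes, 1 rose and 6 fell in E1-KO, 2 rose and 5 fell in E2-KO, and 3 rose and 2 fell in D-KO. The DNA methyltransferase Dnmt3b rose in all 3 genotypes, from 151 ± 15.8 CPM in WT to 204 ± 4.10, 219 ± 2.70 and 301 ± 6.82. Sall2, a paralogue of Sall4, fell from 30.9 ± 2.28 CPM to 9.76 ± 1.58, 11.2 ± 1.44 and 13.7 ± 0.419. With GC and length trends removed 11 of the 12 naive genes were called higher in each single deletion and 6 in D-KO. Of all genes, 2520, 2418 and 2189 were then called higher in E1-KO, E2-KO and D-KO, among 5455, 5226 and 4384 calls. The rise of Dnmt3b in E1-KO was lost in that setting. In the fits on 6 libraries 7, 5 and 4 naive genes were called higher in E1-KO, E2-KO and D-KO, and the rise of Dnmt3b in E1-KO was lost there too. With 1 library left out, 1 to 4 formative and primed genes rose in D-KO, with 1 without WT replicate 1, D-KO replicate 1 or D-KO replicate 2. In E1-KO 2 rose without WT replicate 2, and in E2-KO 1 rose without WT replicate 1 or 3 or any E2-KO library.

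Of 6 genes known as direct targets of Oct4 and Sox2, 3 rose and 2 fell in E1-KO, 3 rose and 2 fell in E2-KO, and 2 rose and 1 fell in D-KO. The named members of that list went opposite ways. Zfp42, which encodes Rex1, rose from 466 ± 27.3 CPM in WT to 759 ± 14.3 in E1-KO, 648 ± 23.5 in the E2-KO libraries and 565 ± 3.94 in D-KO. Lefty1, an inhibitor of Nodal signalling, fell from 53.6 ± 20.8 CPM to 6.77 ± 1.75, 15.0 ± 1.41 and 29.1 ± 3.04. In the fits on 6 libraries none of the 6 was called in D-KO. With 1 library left out, none rose there without any one of the D-KO libraries, and none fell without D-KO replicate 1.

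In the Lin28 and let-7 pathway 13 genes were tested. In E1-KO 3 rose and 3 fell, in E2-KO 3 rose and 2 fell, and in D-KO 3 rose and 1 fell. Hmga2, a chromatin protein and well-known let-7 target, rose from 70.9 ± 12.5 CPM in WT to 147 ± 7.48 in E1-KO, 193 ± 4.97 in the E2-KO libraries and 231 ± 11.7 in D-KO. Igf2bp2, an RNA-binding let-7 target, rose from 129 ± 35.6 CPM to 232 ± 8.38, 254 ± 15.9 and 298 ± 19.0. Both rose in E1-KO, where Lin28a was called lower, a call that was lost in the fit on 6 libraries. Whether these changes are linked was not tested. The falls of this list moved when 1 WT library was left out, to 5 in E1-KO, to 6 for E2-KO and to 3 in D-KO without WT replicate 2 and to 5 in E2-KO and 2 in D-KO without WT replicate 1. One gene fell in E2-KO without any one of its libraries, and none in D-KO without WT replicate 3 or any KO library. Let-7 itself was not measured, and Dgcr8, a cofactor of microRNA processing, is listed at 0 counts in all 12 libraries. The annotation used for counting is not known, so these 0 counts do not show that Dgcr8 RNA was absent.

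Dppa2 and Dppa4 act upstream of zygotic genes of the 2-cell-like state, of which 7 were tested. All 7 fell in both E1-KO and E2-KO, and 6 fell in D-KO. Zscan4d averaged 65.1 ± 17.7 CPM in WT, 3.84 ± 1.15 in E1-KO, 4.30 ± 1.05 in the E2-KO libraries and 12.9 ± 1.28 in D-KO, and Zscan4c 51.1 ± 23.5, 3.87 ± 0.519, 4.16 ± 1.45 and 13.3 ± 0.735 CPM. The Zscan4 genes are near-identical, reads may be split between them, and their single values are uncertain. Dppa2 and these genes were both called lower in the single deletions than in WT, and Dppa4 was called higher. For Dppa2 in E2-KO the libraries overlapped WT, and the call was lost in several of the fits given above. In D-KO Dppa2 did not pass against all WT libraries, and 4 of the 7 were called lower in the fit on 6 libraries.

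A further list held 11 genes of NuRD, the complex with which Sall4 works, and of chromatin partners. Of these, 1 rose and 2 fell in E1-KO, 2 rose and 1 fell in E2-KO, and 2 rose and none fell in D-KO. The helicase subunit Chd4 averaged 1026 ± 240 CPM in WT, 741 ± 20.6 in E1-KO, 740 ± 29.9 in the E2-KO libraries and 912 ± 19.1 in D-KO, and Mta3 113 ± 5.79, 142 ± 6.16, 151 ± 13.6 and 145 ± 6.0 CPM. In the fits on 6 libraries no gene of this list was called in any genotype. With 1 library left out, 0 to 4 of its genes fell in each single deletion and 0 to 2 in D-KO, the most without WT replicate 2. None fell without E1-KO replicate 1 in E1-KO or without E2-KO replicate 1 or 2 in E2-KO. Rises ranged from 0 to 2 in E1-KO (2 without WT replicate 2, 0 without E1-KO replicate 1), were 1 in E2-KO without E2-KO replicate 1 or 2, and were 0 or 1 in D-KO without any one of its libraries. Of 9 paralogues of the 8 genes, 1 rose and 5 fell in E1-KO, 1 rose and 5 fell in E2-KO and 2 fell in D-KO, where 2 also rose without WT replicate 2 and 4 fell without WT replicate 1. Sox3, like Sox2 a factor of the SoxB1 group, averaged 26.4 ± 17.6 CPM in WT, 3.38 ± 0.475 in E1-KO, 6.59 ± 0.805 in the E2-KO libraries and 10.7 ± 0.562 in D-KO, while Sox2 was higher in all 3.

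Markers of cell types that such cultures can also hold moved with genotype, and their part in the levels of the 8 genes was not tested. All 8 primitive endoderm markers fell in both E1-KO and E2-KO, and 7 fell in D-KO. Their summed level was 167 to 176 CPM in WT, 31.3 to 32.9 in E1-KO, 72 to 73 in the E2-KO libraries and 87.5 to 91.0 in D-KO. Gata6, an early factor of that lineage, was at 70.6 ± 1.87, 16.2 ± 1.18, 36.6 ± 1.61 and 46.2 ± 1.40 CPM, and the receptor Cubn at 19.6 ± 5.07, 0.806 ± 0.183, 3.48 ± 0.822 and 7.02 ± 0.130 CPM. Of 5 trophectoderm markers tested, 3 rose in each single deletion, and 1 rose and 1 fell in D-KO. Their summed level over the 6 listed was 99.7 to 105 CPM in WT, 168 to 182 in both E1-KO and E2-KO, and 92.2 to 101 in D-KO, with Krt8 and Tead4 as the named genes. In D-KO no trophectoderm marker rose without D-KO replicate 1 or 2, 2 rose without WT replicate 3 and 2 fell without WT replicate 2.

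The remaining marker lists were low. Early neural markers summed to 16.4 to 25.8 CPM in WT, 13.2 to 20.9 in E1-KO, 15.5 to 17.4 in the E2-KO libraries and 22.1 to 31.5 in D-KO, and of 4 tested 1 rose and 2 fell in E1-KO, 2 fell in E2-KO, and 1 rose and 2 fell in D-KO. Pax6 fell in all 3 genotypes, with a call in D-KO (edgeR adjusted p = 0.0497) that was lost in most fits leaving out 1 library. No neural marker rose in E1-KO once WT replicate 3, E1-KO replicate 1 or E1-KO replicate 2 was left out, and in D-KO 2 rose without WT replicate 2. Hes5 was at 0 counts in E2-KO and D-KO. Fibroblast markers summed to 18.8 to 33.7 CPM over all 12 libraries, with Lum at 0 counts in all of them and Dcn at 0 in WT, E1-KO and E2-KO. Of 3 tested, Thy1 rose in each single deletion and Pdgfrb fell in D-KO, all calls that were lost in the fits on 6 libraries. Mesoderm markers summed to 2.38 to 4.07 CPM, and neither of the 2 tested was called in any genotype.

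The 8 genes did not follow a single pattern over the 12 libraries. Pou5f1 and Sox2 were the closest pair over the 12 libraries, with a Pearson correlation of log2 CPM of 0.98. Over the 9 KO libraries they correlated at 0.93, below some of the pairs given further on. Dppa4 followed both over 12 libraries (0.93 with Pou5f1 and 0.94 with Sox2) and neither over the KO libraries (0.12 and -0.09). Utf1 went with Pou5f1 over 12 libraries (0.83) and against it over the 9 KO libraries (-0.43). L1td1, Dppa2 and Lin28a went together among the KO libraries: L1td1 correlated at 0.98 with Dppa2 and 0.93 with Lin28a, and Dppa2 at 0.96 with Lin28a. These correlations describe libraries that share genotype and library-wide trends, and carry no test.

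Among 8084 other genes, those whose average log2 CPM was 4 or more, the nearest patterns over the 12 libraries were found by the same correlation. Rpl12 (0.996) and Bex3 (0.994) were nearest to Pou5f1, Mllt6 (0.995) and Cyb5r3 (0.990) to Sox2, and Adprh (0.996) and Hps1 (0.985) to Utf1. Dppa2 was nearest to the mitochondrially encoded mt-Cytb (0.993) and to Peg10 (0.986), and Dppa4 to H3f3a (0.991) and Pcgf2 (0.984). Lin28a was nearest to Gtf2i (0.975) and Dnmt3a (0.974), L1td1 to Dnajb6 (0.969) and Slc9b1 (0.969), and Sall4 to Fgd1 (0.970) and Ctbp2 (0.965). Over the 9 KO libraries alone, the correlation of Sall4 with Fgd1 was 0.63 and with Ctbp2 0.42, and that of Utf1 with Hps1 was 0.67. The other 13 correlations were 0.84 to 1.00 there.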

How the data were processed

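The 12 RNA-seq libraries were grouped by the genotype in their labels; the 4C and ChIP samples were not analysed here. The files hold raw read counts per gene symbol as deposited by the authors. Reads were aligned to mm10 with HISAT2 2.1.0 and counted with HTSeq 0.9.1, and DESeq2 1.18.1 is also listed, per the submitters' processing notes. Which annotation and strand setting served for counting was not given in the sources used here. HTSeq's summary lines, among them reads with no feature (1.11 to 1.20 per counted read), were left out of every total and test.

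Counts were analysed with edgeR 4.0.16 in R 4.3.3: filterByExpr on genotype (16765 genes), TMM scaling, and a robust quasi-likelihood fit on 12 libraries with 4 genotype means (8 residual degrees of freedom). Benjamini-Hochberg adjustment ran over all genes tested, and genes below 0.05 were called. Log2 fold changes carry standard errors, and CPM values carry SDs. WT libraries varied more than the spread shared by this fit allows and KO libraries less, with median dispersions of 0.0928 and 0.00616. Alternatives were DESeq2 1.42.0 size factors and Wald test, library totals, limma 3.58.1 voom with a weight per genotype, only the libraries of a pair of genotypes, no filter, the replicate number as a block, splines on GC content and length removed (97.05% of genes had both), and libraries left out. For D-KO against WT, the edgeR step tested on simulated counts of 16424 genes recovered 64.6% of log2 changes of 1 and 91.8% of changes of 2, with 6 unchanged genes called. In that simulation each gene had the same dispersion in all libraries and no GC trend was added. Its rates therefore do not measure recovery or false calls at the unequal spread of WT and KO found here.

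Gene positions and exon lengths come from the GENCODE annotation of GRCm38 and promoters from RefSeq. The members and the lists were chosen with earlier results of these data known. The rule for named genes took all 8 members, up to 2 genes per list with the smallest adjusted p against WT, and the 2 genes most correlated with each member among genes whose average log2 CPM was 4 or more, leaving out predicted loci. One gene that the rule took is not reported here.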

Additional observations from a re-analysis of the deposited data

Results flagged for a closer look

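For all 8 genes D-KO departed from the sum of the single deletions, each taken against WT on the log2 scale. The test was edgeR's on 12 libraries (adjusted p from 0.000495 to 0.0419, over 16765 genes). With 1 library left out, 5 to 7 of the 8 were called. The calls of Sall4, Utf1 and Dppa4 were lost in 11, 10 and 5 of those 12 fits. Removal of GC and length trends ended the calls of Utf1 and Sall4. The log2 values were -1.24 for Pou5f1, -1.51 for Sox2, -0.60 for Sall4, 0.97 for Lin28a, -1.09 for Utf1, 1.00 for Dppa2, -0.55 for Dppa4 and 0.79 for L1td1. Beside these 8 calls, 35.2% of all genes tested were called in the same contrast. Groups of 3 libraries are too small for a test of single outlying libraries.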

How the results depend on the processing

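The calls of Sox2, Utf1, Sall4 and Dppa4 against WT kept their direction and their side of the threshold under other scalings, DESeq2, limma voom with a weight per genotype, no filter, GC and length trends removed and each library left out. In the fits on the 6 libraries of a pair of genotypes, those of Sox2 in D-KO, Sall4 in E2-KO and D-KO, and Dppa4 in E1-KO and D-KO were lost, and the other 7 were kept. Those fits called 4, 3 and 1 of the 8 genes in E1-KO, E2-KO and D-KO against WT (2552, 2535 and 1438 of all genes). They called 6 in each of D-KO against E1-KO, D-KO against E2-KO and E2-KO against E1-KO (8025, 5872 and 3377 of all genes). Limma voom called 3278, 3229 and 1927 genes against WT, and 6, 5 and 4 of the 8 between KO genotypes (7960, 5678 and 2812 of all genes). With WT replicates 1 and 3 both left out, the lone WT library is assumed to vary like the KO libraries; 6 of the 8 were then called in each comparison of KO genotypes (8030, 6158 and 3457 of all genes), and 6238 genes in D-KO against WT. In D-KO against E2-KO, DESeq2, no filter and GC and length trends removed each called 2 of the 8 (1146, 1472 and 1478 of all genes); in E2-KO against E1-KO they called 246, 415 and 254 genes. Leaving out 1 library gave 3965 to 8753 genes in E1-KO, 3969 to 8887 in the E2-KO libraries and 2413 to 7006 in D-KO against WT, the highest each time without WT replicate 2. It gave 1174 to 4934 in D-KO against E1-KO, 227 to 2875 in D-KO against E2-KO and 16 to 722 in E2-KO against E1-KO. The members called then ranged from 2 to 5, 0 to 4 and 0 to 1 in these 3 comparisons and from 5 to 7 in the interaction, in which the DESeq2 size factors called 7 and removal of GC and length trends 6. Some differences that had not passed changed sign, and Lin28a in D-KO then passed as higher without WT replicate 3 (edgeR adjusted p = 0.0231). With 1 library left out, L1td1 in E1-KO ranged from -0.29 to 0.05, and in D-KO Lin28a from -0.24 to 0.25, Dppa2 from -0.08 to 0.12 and Chd4 from -0.28 to 0.03. Pdgfrb in E2-KO ranged from -0.23 to 0.02. With WT replicates 1 and 3 out, L1td1 in E1-KO was 0.11, Lin28a in D-KO 0.21, Chd4 in D-KO 0.09 and Pdgfrb in E2-KO 0.01. With GC and length trends removed, Sall4 was 0.13 in D-KO against E1-KO, Pou5f1 -0.02 in E2-KO against E1-KO, Pdgfrb -0.05 in E1-KO and Krt8 -0.13 in D-KO against WT. With library totals as the only scaling, Dppa4 was -0.02 in D-KO against E1-KO and Utf1 -0.02 in D-KO against E2-KO. That scaling moved the median of all genes to -0.18 in the interaction, -0.11 in D-KO against E1-KO and 0.10 in E1-KO against WT, and the share of calls that were higher from 45.9% to 57.1% in E1-KO against WT, from 52.9% to 35.9% in D-KO against E1-KO, from 46.0% to 35.0% in E2-KO against E1-KO and from 51.4% to 38.7% in the interaction. The share also reached 55.1% in D-KO against E2-KO with GC and length trends removed, from 41.1%. The cause of these changes was not tested. Replicate numbers are shared across genotypes in the labels but did not pair the libraries: deviations of same-numbered libraries correlated at -0.226 to 0.173 (median -0.0448, 4 of 18 pairs over 0.1), and 4 of 12 libraries correlated best with their own number. With the replicate block, 5414, 5582 and 3467 genes were called against WT, 2310, 581 and 71 between KO genotypes in the same order and 5609 in the interaction, and the members called were 7, 6, 5, 3, 1, 0 and 8, as without it.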
